A study of Mus musculus with 6 samples.

Results

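The transcript composition of normal mouse liver was described from the 3 Control libraries of a series of 6. These libraries were chosen by their labels alone. The other 3 libraries come from mice that lack beta-catenin and gamma-catenin in hepatocytes and are not described here. Control livers came from C57BL6 mice aged 3 months and carry the genotype Control, whose alleles the labels do not spell out. Nothing in the labels says that the 3 replicates are separate animals, so the spread given below is a spread between libraries, which may be in part technical.

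The liver makes most plasma proteins and secretes them into the blood. It also makes the apolipoproteins that package lipid, converts nutrients between meals, turns ammonia into urea, makes bile acids and modifies foreign compounds for excretion. Nearly all of this is done by hepatocytes, the main parenchymal cells, which share the tissue with sinusoidal endothelium, Kupffer cells (the resident macrophages), stellate cells (which store vitamin A) and bile duct cells. Male mouse liver in addition secretes major urinary proteins (MUPs), small lipocalins that carry scents into urine. Because whole tissue was sequenced, fewer cells of a type and less RNA per cell cannot be told apart.

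HTSeq counts were converted to TPM, that is, counts divided by the exonic length of the gene and scaled to the same sum in each library, so that levels of different genes can be compared. Genes under 200 bases of exon were left out of this scale, the usual TPM scale of transcript shares. On it Ctnnb1, which encodes beta-catenin, was at 80.7, 88.6 and 91.5 TPM in replicates 1, 2 and 3, and Jup, which encodes gamma-catenin, at 7.50, 6.66 and 5.46 TPM. The libraries held 45427473, 41007649 and 37000776 reads in replicates 1, 2 and 3, of which 34.9%, 34.0% and 33.3% were counted to a gene. Reads that HTSeq gave to no annotated feature made up 37.8% to 40.6%, and reads aligned to more than 1 place 18.1% to 20.2%. The strand setting of the counting is not known, so the reads without a feature may include reads in exons on the other strand. These gene counts ranged from 12320487 to 15869639, and the 95% Wilson interval of the read share of Alb in replicate 1 ran from 7.65% to 7.68%. The interval covers counting error only, since the reads carry no molecular identifiers. At this depth 3 reads, the limit that a count of 0 allows, equalled 0.189 to 0.243 CPM, that is, counts scaled to the same total of gene reads in each library but not divided by length.

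The marker genes of hepatocytes stood at the top of the transcript pool. Alb, which encodes serum albumin, was at 73913, 64344 and 62063 TPM in replicates 1, 2 and 3. Apoe, an apolipoprotein of very low density lipoprotein, was at 18970, 20966 and 19869 TPM. Ahsg, which encodes fetuin-A, was at 14843, 12276 and 11811 TPM, and Serpina3k, a secreted serine protease inhibitor, at 14612, 15283 and 15789 TPM. The order of these genes was the same in each library only for Alb and Apoe, which led in all 3, whereas Ahsg lay above Serpina3k in replicate 1 and below it in replicates 2 and 3.

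The stretch of DNA before the start of a gene holds sites for the factors that set its transcription. These include the CCAAT-binding factors. Of the 100 nuclear protein-coding genes with the highest mean TPM, 75 matched the RefSeq promoter table (build GRCm38.p6) with 87 promoters. GTTAAT, on either strand within 150 bases before the start, was in 13 of these 87 promoters (14.9%). It was in 3.71% of all 32851 promoters in the table, and in 2.22% of the 10633 promoters of genes with a mean of 1 TPM or more. This word was added after the sequences had been seen. CCAAT, on either strand, was in 30 of the 87 (34.5%), against 24.5% of all promoters and 27.3% of those of genes with a mean of 1 TPM or more. TATAAA, on the strand of the gene, was in 9 (10.3%), against 4.84% and 2.34%. A longer palindrome that begins with GTTAAT and the word TTGCGCAA, on either strand, were in none of the 87 and in 3 and 37 of all promoters. A match is a run of letters and was not tested as a binding site. The 6 most abundant genes with GTTAAT are shown because the first of them, Alb, is the most abundant nuclear transcript in these libraries. Their stretches are printed 5′ to 3′ on the strand of the gene, from 150 bases before the RefSeq start up to that start or to the first GENCODE exon, whichever came first. Capitals mark the 3 words of 5 or 6 letters named above.
Alb: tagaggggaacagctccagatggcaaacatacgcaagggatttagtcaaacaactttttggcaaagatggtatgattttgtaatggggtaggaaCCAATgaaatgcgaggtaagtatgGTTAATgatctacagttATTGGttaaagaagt
Fabp1: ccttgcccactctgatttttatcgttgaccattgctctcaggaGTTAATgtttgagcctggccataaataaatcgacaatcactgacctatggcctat
Gc: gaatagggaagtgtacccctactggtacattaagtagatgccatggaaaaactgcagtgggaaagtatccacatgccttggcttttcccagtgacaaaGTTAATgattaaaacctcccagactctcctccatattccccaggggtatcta
Serpina1e: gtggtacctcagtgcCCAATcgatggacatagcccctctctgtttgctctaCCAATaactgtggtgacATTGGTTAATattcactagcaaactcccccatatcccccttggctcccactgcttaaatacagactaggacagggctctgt
Serpina1c: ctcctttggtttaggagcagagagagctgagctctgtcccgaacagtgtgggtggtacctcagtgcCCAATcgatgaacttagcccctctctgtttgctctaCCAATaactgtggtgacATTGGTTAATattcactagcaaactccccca
Serpina1b: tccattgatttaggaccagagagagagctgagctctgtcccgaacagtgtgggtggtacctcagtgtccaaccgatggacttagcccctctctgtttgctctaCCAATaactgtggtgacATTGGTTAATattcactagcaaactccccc
The Alb stretch lies at chr5:90460720-90460869 on the plus strand, with GTTAAT beginning 32 bases before the start. The Fabp1 stretch lies at chr6:71199729-71199826 on the plus strand and that of Gc at chr5:89457899-89458048 on the minus strand. Their GTTAAT begins 107 and 52 bases before the start. The serpin genes lie on the minus strand of 1 cluster, with stretches at chr12:103956899-103957047, chr12:103904951-103905100 and chr12:103738190-103738339. All 3 hold the same run ATTGGTTAAT, in which CCAAT read on the other strand overlaps GTTAAT by 1 letter. The other 7 genes with the word were Serpina1d, Fgb, Vtn, Fga, Pzp, Mug1 and Serpina1a, so that the 13 include 5 copies of Serpina1 and 2 fibrinogen chains.

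A small number of genes made up most of the pool. Among 21389 nuclear protein-coding genes the most abundant gene held 7.79% ± 0.736 (SD, n = 3) of their TPM, the 10 most abundant 28.0% ± 0.709 and the 100 most abundant 53.8% ± 0.619. In replicates 1, 2 and 3, respectively, 67, 75 and 75 genes held 50% of it, and 2079, 1944 and 1919 genes held 90%. A level of at least 1 TPM in every library was reached by 9916 genes, at least 10 TPM by 4695, at least 100 TPM by 903 and at least 1000 TPM by 88. Of all 43346 gene IDs, 22264 had no read in any of the 3 libraries. Replicate 1 had the steepest start, as seen in the plot of the cumulative share.

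**Figure D1:**
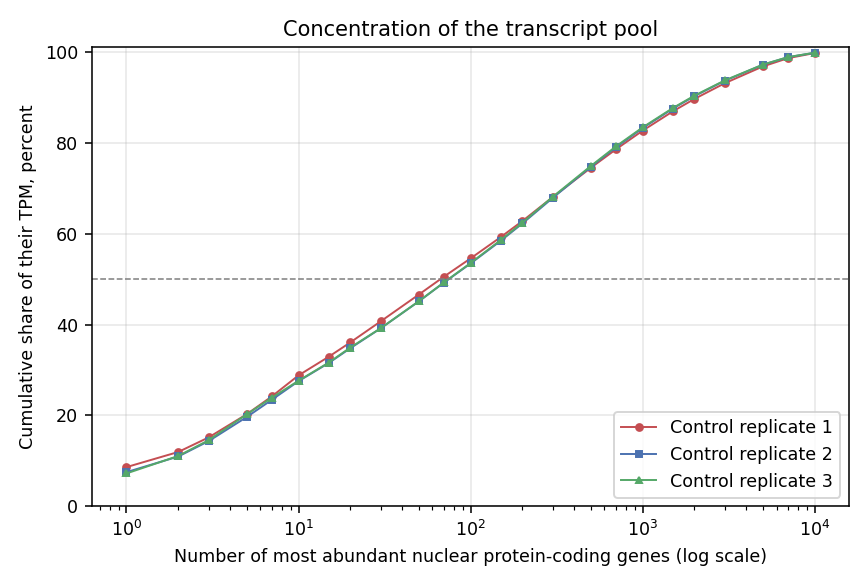
Cumulative share of the TPM of nuclear protein-coding genes (vertical axis, percent) against the number of most abundant genes (horizontal axis, log scale), with 1 line per Control library and a dashed line at 50%. The most abundant gene alone holds between 7.23% and 8.62%, and the 50% line is crossed at 67 to 75 genes.

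Counts by gene type showed a pool of coding transcripts. Nuclear protein-coding genes took 92.0% ± 0.125 (SD, n = 3) of gene reads and the 13 mitochondrial protein-coding genes 6.36% ± 0.125. Genes annotated as antisense took 0.635% ± 0.0197, long intergenic RNAs 0.247% and processed pseudogenes 0.121%. The 5 most abundant non-coding genes were B430119L08Rik (1248 TPM ± 166, SD, n = 3), Gm30097 (1132 ± 283), Gm15622 (1007 ± 0.768), Gm42418 (918 ± 156) and Gm16559 (687 ± 34.1). B430119L08Rik lies inside the cluster that holds Serpina1c and shares 16.0% of its 50-base words with it, and Gm30097 overlaps the fibrinogen gene Fgg. Gm42418 shares 94.9% of its 50-base words with the gene CT010467.1, so its level is uncertain. Where an antisense gene had at least 50% of its exonic bases over exons of a coding gene at 100 TPM or more, as 12 genes did, its read density was a median of 1.08 times that of its partner, with a range from 0.00252 to 1.95. No label gives the strand setting of the counting, so reads of these genes and of their partners cannot be told apart.

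The 29 functional classes, which hold 1458 genes, took 74.0% ± 0.0969 (SD, n = 3) of the TPM in all. Proteins made for export led: 170 genes of plasma and urinary proteins took 36.1%, 34.2% and 34.0% in replicates 1, 2 and 3. Intermediary metabolism, with 275 genes, took 10.2%, 10.8% and 11.2%, and xenobiotic metabolism, with 202 genes, 5.72%, 6.42% and 6.38%. The ranges of these sums over the libraries do not overlap. The 19943 other protein-coding genes took 23.1% ± 0.0827.

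**Figure D2:**
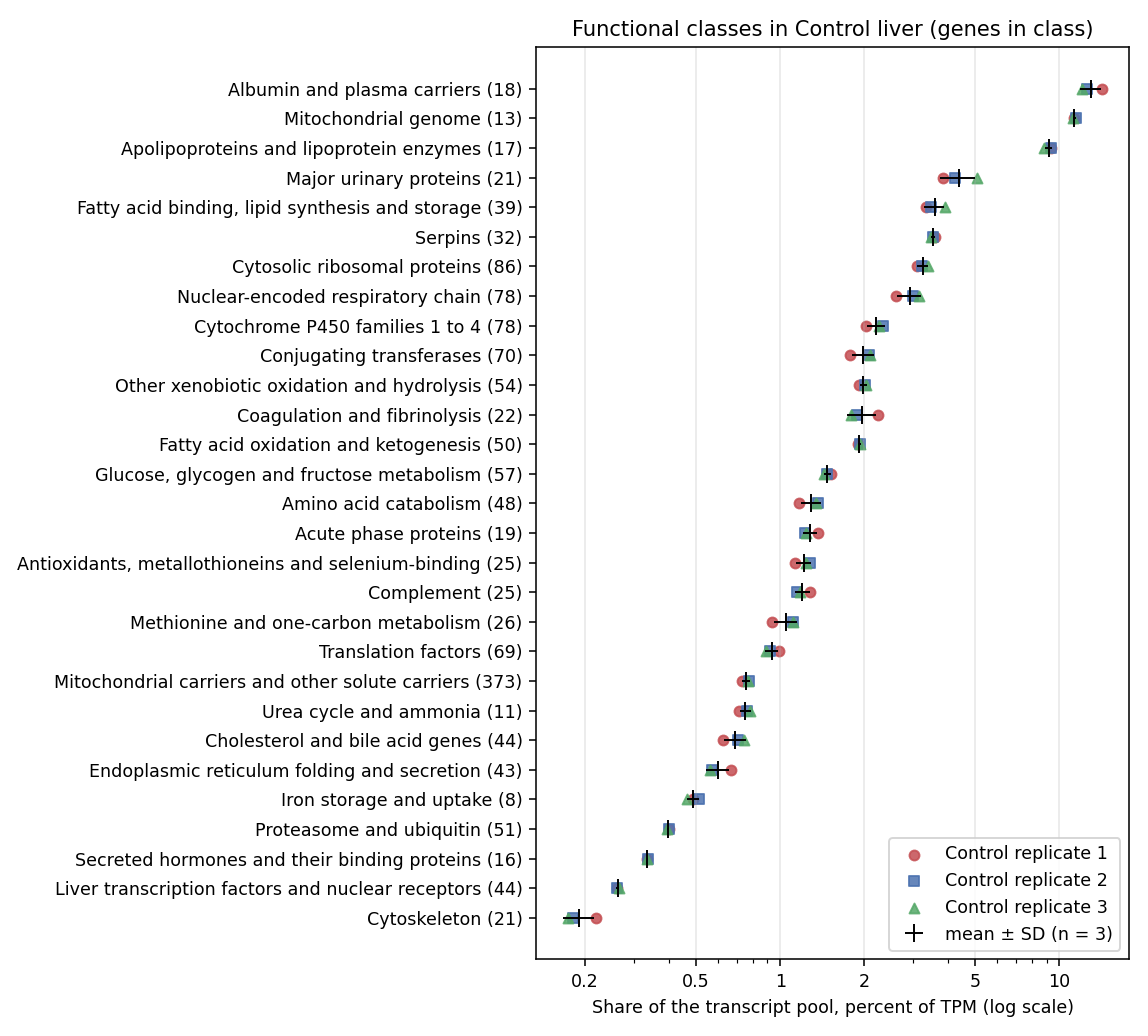
Share of the transcript pool in each functional class (percent of TPM, log scale), with 1 point per Control library and the mean with its SD over 3 libraries. Albumin and plasma carriers, the mitochondrial genome and the apolipoproteins lie above 8% in every library, and major urinary proteins, at 3.81% to 5.06%, have the widest relative spread of all classes shown.

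Albumin and the plasma carriers were the largest class, with 18 genes and 12.9% ± 1.14 (SD, n = 3) of TPM. Alb, Ahsg and Ttr, which encodes the thyroid hormone and retinol-binding carrier transthyretin, made up 70.6% of it. Ttr was at 13482, 11355 and 10131 TPM in replicates 1, 2 and 3. The class was highest in replicate 1 (14.2%) and close to equal in replicates 2 and 3 (12.5% and 12.1%). Further carriers among the 30 most abundant nuclear genes were Gc (vitamin D-binding protein; 8392 TPM ± 918), Hpx (hemopexin, which binds heme; 6689 ± 92.6), Selenop (selenium transport; 5776 ± 267), Rbp4 (retinol-binding protein; 5666 ± 359) and Ambp (alpha-1-microglobulin and bikunin; 5274 ± 661). The CV of Hpx over the 3 libraries was 1.39% and that of Ttr 14.5%.

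Apolipoproteins and lipoprotein enzymes followed with 17 genes, all at 1 TPM or more in every library, and 9.16% ± 0.277 of TPM. Apoa2 and Apoa1 encode the main proteins of high density lipoprotein. Apoa2 was at 28570, 29484 and 29006 TPM, on this scale the steadiest of the 10 most abundant nuclear genes with a CV of 1.57%. The ranking depends on the scale: on TMM-scaled CPM the CV was 5.34% for Apoa2 and 5.23% for Alb. Apoa1 was at 18872, 17269 and 15771 TPM. Apoc1 (11011 TPM ± 823), Apoc3 (3959 ± 220) and Apoh (3515 ± 212) were also among the 30 most abundant nuclear genes. The class of fatty acid binding, lipid synthesis and storage took 3.57% ± 0.293, and 3 of its 39 genes held 89.0% of it. Fabp1, the fatty acid-binding protein of liver cytosol, was the second most abundant nuclear transcript at 27401, 28932 and 33088 TPM. Dbi, which binds acyl-CoA, was at 1160, 985 and 915 TPM, and Scd1, the stearoyl-CoA desaturase, at 974, 972 and 1040 TPM.

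Protease inhibitors, clotting factors and complement proteins formed the rest of the plasma proteins. Serpins took 3.53% ± 0.0500 of TPM over 32 genes, of which 22 reached 1 TPM in every library, and their share had a CV of 1.42%. After Serpina3k the most abundant were the alpha-1-antitrypsin genes Serpina1e (7084, 6283 and 5626 TPM) and Serpina1c (3355, 3210 and 2966 TPM). Serpina1c shares 79.3% of its 50-base words with transcripts of other genes, and Serpina1e shares 34.6%. Reads that align to several places were not counted, so the levels and the order of the Serpina1 copies are uncertain. The share of the serpins leaves those reads out. Coagulation and fibrinolysis took 2.23%, 1.88% and 1.80% in replicates 1, 2 and 3. The fibrinogen gamma chain Fgg was at 4730, 3365 and 3231 TPM, the beta chain Fgb at 2724, 2196 and 2275 TPM, and Vtn, which encodes vitronectin, at 2611, 2347 and 2111 TPM. As TPM these 3 genes were highest in replicate 1. On TMM-scaled CPM 10 of the 22 genes of the class were highest in replicate 1, 9 in replicate 2 and 3 in replicate 3. Over all 8525 genes with a mean count of at least 100, 36.2% were highest in replicate 1. Acute phase proteins took 1.28% ± 0.0746, led by Hp (haptoglobin; 3724 TPM ± 141), Orm1 (orosomucoid; 3401 ± 116) and Hamp (hepcidin, the hormone that limits iron uptake; 2294, 1712 and 2033 TPM). Complement took 1.20% ± 0.0715, led by Mbl2 (mannose-binding lectin; 3188 TPM ± 277) and C3 (2907, 2370 and 2278 TPM). Secreted hormones and their binding proteins took 0.334% ± 0.00162, led by Igfbp2, Igfbp4 and Agt.

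Major urinary proteins took 3.81%, 4.22% and 5.06% of TPM in replicates 1, 2 and 3, a CV of 14.5%, the highest of the 29 classes. Mup3 was at 24848, 24480 and 29735 TPM, Mup20 (darcin, a male pheromone) at 5829, 5505 and 6863 TPM and Mup7 at 4476, 6645 and 6950 TPM, and these 3 made up 88.1% of the class. All 16 MUP genes with a mean count of at least 100 had their lowest TMM-scaled level in replicate 1, and 14 had their highest in replicate 3. Over all 8525 genes with that count, 42.9% were lowest in replicate 1 and 33.8% highest in replicate 3. The lowest library depends on the scale: as TPM, Mup3 and Mup20 were lowest in replicate 2. The MUP genes share much of their sequence: 14 of the 16 examined share at least 50% of their 50-base words with transcripts of other genes. Mup3 (13.3%) and Mup21 (19.3%) are the exceptions. Reads that align to more than 1 place were not counted to a gene, so the level of each single MUP gene is uncertain and the class sum leaves those reads out.

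The mitochondrial genome, which encodes 13 proteins of the respiratory chain, took 11.3%, 11.4% and 11.2% of TPM. The mean of mt-Co1 was 38944 TPM ± 2039, that of mt-Cytb 26517 ± 497 and that of mt-Nd1 14940 ± 542. Its coding genes fell into a group of 7 with means from 5349 TPM (mt-Nd5) upward and a group of 6 with means from 37.3 TPM (mt-Atp8) to 134 TPM (mt-Nd3). The low group includes mt-Co2 (99.8 TPM) and mt-Co3 (108 TPM), subunits of the same complex as mt-Co1. Of the low group, mt-Co2, mt-Co3, mt-Atp6, mt-Nd3 and mt-Nd4l share at least 97% of their 50-base words with transcripts of another gene, among them the nuclear pseudogenes Gm28661, Gm28437 and Gm10925 on chromosome 1, whereas mt-Atp8 shares none with an annotated transcript. In the high group mt-Cytb, mt-Nd1 and mt-Nd6 share none, mt-Co1 shares 51.1% and mt-Nd4 62.2%. The level of the 5 is therefore uncertain, and the class share leaves out reads that were not counted for them. The level of mt-Nd6, the only coding gene on the minus strand, is uncertain for another reason. The strand setting of the counting is not known, so reads of the opposite strand cannot be told apart from its own.

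Nuclear-encoded respiratory chain genes took 2.60%, 3.00% and 3.14% of TPM in replicates 1, 2 and 3. All 78 genes reached 1 TPM in every library, and Cox6a1 (1342, 1522 and 1447 TPM), Ndufa4 (870, 1086 and 1276) and Cox8a (939, 1078 and 1113) led. Of the 77 with a mean count of at least 100, 71 were lowest in replicate 1, beside the 42.9% of all genes. Of all genes with a mean count of at least 500, 52.5% were lowest in it. Cytosolic ribosomal proteins took 3.09%, 3.22% and 3.40%, and 57 of 82 were lowest in replicate 1. Rplp1, a protein of the ribosomal stalk, was at 2531, 3011 and 3402 TPM. The median exonic length was 1696 bases for 76 respiratory chain genes and 1781 bases for 79 ribosomal protein genes, against 4033 bases for all 3552 genes with a mean count of at least 500. Over genes with a mean count of at least 500 that were split by exonic length, the median log2 ratio of replicate 1 to replicate 2 was -0.17 among those with the shortest exons (265 to 2186 bases) and 0.03 among those with the longest (7095 to 35542 bases), and against replicate 3 it was -0.17 and 0.01. The part of this length trend in the class differences was not tested. Translation factors, led by Eef1a1 (3885, 3386 and 3100 TPM), Tpt1 and Eef2, were ordered the other way, with 0.988%, 0.919% and 0.892%.

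Enzymes that act on foreign compounds formed 3 classes of similar size. Cytochromes P450 of families 1 to 4 with their partners took 2.03%, 2.33% and 2.26% in replicates 1, 2 and 3, and 54 of 78 genes reached 1 TPM in every library. Cyp2e1, which oxidizes ethanol and acetaminophen, was at 5137, 6826 and 6122 TPM, Cyp3a11, a main drug-metabolizing form, at 1916, 1774 and 2005 TPM, and the electron donor Cyb5a at 919, 1206 and 1429 TPM. Conjugating transferases took 1.78%, 2.08% and 2.10%, led by the glutathione transferases Mgst1 (4478, 5429 and 6082 TPM), Gstp3 (2500, 2922 and 2525 TPM) and Gstp1 (1900, 1947 and 1665 TPM). Other oxidation and hydrolysis took 1.98% ± 0.0591, led by the alcohol dehydrogenase Adh1 (1950, 2165 and 2044 TPM), Rgn and the carboxylesterase Ces1c. In all 3 of these classes replicate 1 was below both other libraries.

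Intermediary metabolism was spread over more genes than the plasma proteins. Fatty acid oxidation and ketogenesis took 1.92% ± 0.0232 over 50 genes, with a CV of 1.21% over the libraries, led by Scp2 (2937, 2765 and 2763 TPM) and Phyh (1914, 2570 and 2620 TPM). Glucose, glycogen and fructose metabolism took 1.47% ± 0.0419, and its more abundant members included Pck1, which starts gluconeogenesis from oxaloacetate (1819, 1752 and 1592 TPM), and Sord (1292, 1583 and 1567 TPM). Amino acid catabolism took 1.17%, 1.37% and 1.34%, and its more abundant members included Hpd and Tat, the tyrosine aminotransferase, which was at 697, 1367 and 1367 TPM. Methionine and one-carbon metabolism took 0.932%, 1.11% and 1.11%, with Gnmt (1579, 2115 and 2044 TPM), Ahcy (896, 1415 and 1424 TPM) and Mat1a (1247, 1175 and 1172 TPM). The urea cycle class, with 11 genes at 1 TPM or more in every library, took 0.750% ± 0.0327, of which Arg1 (1824, 2279 and 2496 TPM), Ass1 (2088, 2026 and 1894 TPM) and Cps1 (1301, 1210 and 1275 TPM) made up 72.8%. Cholesterol and bile acid genes took 0.626%, 0.704% and 0.744%, led by Akr1c6, the bile acid transporter Slc10a1 and Slc27a5.

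Antioxidants took 1.21% ± 0.0755, led by Gpx1 (3072, 3262 and 2780 TPM), Cat and Selenbp2. Iron storage and uptake took 0.486% ± 0.0239, nearly all of it from the ferritin chains Ftl1 and Fth1 and the receptor Tfr2, although Ftl1 shares 58.4% of its 50-base words with other genes. Solute carriers took 0.755% over 373 genes, of which 182 reached 1 TPM in every library. Endoplasmic reticulum folding and secretion took 0.664%, 0.567% and 0.561%, led by P4hb, Calr (609, 393 and 348 TPM) and Herpud1. Liver transcription factors and nuclear receptors took only 0.261% ± 0.00314 over 44 genes. Cebpa (309, 389 and 439 TPM) and Nr1h4, the bile acid receptor FXR (202, 189 and 193 TPM), lay above Foxa2 (18.6, 18.3 and 17.3 TPM) in every library. Hnf4a, a main regulator of hepatocyte identity, was at 226, 182 and 172 TPM.

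Zonation, the division of labour between hepatocytes near the portal and the central vein, was represented at both ends. Of 20 pericentral genes 19 reached 1 TPM in every library, and their summed level was 11307, 13931 and 13263 TPM in replicates 1, 2 and 3. Glul, the glutamine synthetase of the innermost pericentral cells, was at 482, 585 and 571 TPM, Cyp1a2 at 566, 712 and 645 TPM and Oat at 240, 360 and 323 TPM. The Wnt targets Lgr5 (0.513, 1.18 and 0.891 TPM) and Axin2 (2.33, 1.30 and 1.47 TPM) were low. Of 17 pericentral genes with a mean count of at least 100, 14 were lowest in replicate 1, beside 42.9% of all genes. All 19 periportal genes reached 1 TPM in every library, among them Cyp2f2 (1097, 1236 and 1205 TPM), Sds and Hal. They summed to 108979, 99566 and 102484 TPM, most of it from Alb and Mup3. Of 18 with a mean count of at least 100, 11 were lowest in replicate 1, so that both panels lay above the 42.9%. All 18 and 15 of the pericentral genes had a mean count of at least 500. Of all genes with that count, 52.5% were lowest in replicate 1. The difference between the panels was not tested.

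The labels give no sex, and sex-linked genes were at the levels known of male liver. Xist, the RNA that silences an X chromosome in females, was at 0.00793, 0.00885 and 0 TPM, whereas the Y-linked Ddx3y (25.7, 22.1 and 21.7 TPM), Eif2s3y (51.0, 43.4 and 41.2), Kdm5d and Uty were at 1 TPM or more in each library. All 15 genes known as higher in male liver reached 1 TPM in every library, with a median of 403 TPM. Of 18 known as higher in female liver 8 did, with a median of 0.754 TPM, and 3 had no read in any library (Cyp3a41b, Sult3a1 and Sult2a1). Cyp2c40 (82.0, 115 and 104 TPM) and Cyp2c69 (19.4, 45.1 and 46.5 TPM) were the 2 members at 10 TPM or more.

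Clock, feeding and stress genes were read next, since the labels give neither the time of day nor the feeding of these mice. Arntl (BMAL1), whose peak is opposite to that of Dbp, was at 0.586, 0.338 and 0.262 TPM, whereas Dbp was at 103, 120 and 100 TPM and Per2 at 14.1, 16.9 and 18.1 TPM. Fasting genes gave Fgf21 at 15.3, 2.84 and 2.64 TPM and Pdk4 at 4.54, 0.995 and 2.30 TPM, and lipogenic genes gave Thrsp at 430, 1030 and 1038 TPM. Fgf21 and Pdk4 were highest and Thrsp lowest in replicate 1. Over all 8525 genes with a mean count of at least 100, 36.2% were highest and 42.9% lowest in it. The mean counts of Fgf21 and Pdk4 were only 44.3 and 59.7. Summed over whole panels, 16 fasting genes were at 5781, 5973 and 5777 TPM and 20 sterol response genes at 497, 506 and 480 TPM. The 14 lipogenic and glucose response genes, which include Thrsp, were at 2258, 2784 and 2855 TPM. Immediate early genes summed to 423, 767 and 703 TPM, and glucocorticoid and metal response genes to 243, 457 and 413 TPM. Replicate 1 was the lowest library in the last 3 of these panels, whose sums had CVs of 12.4%, 29.0% and 30.4%. A sum weighs its most abundant members most. Of the members of these panels among the 8525 genes, 7 of 13, 5 of 9 and 4 of 8 were lowest in replicate 1, beside 42.9% of all. Those highest in it numbered 5, 3 and 3, beside 36.2%. Of the sterol response genes with that count, 13 of 19 were lowest in replicate 1 and 4 were highest. Of the fasting genes 4 of 12 were lowest in it and 7 were highest. Medians over the members were 62.8, 50.4 and 53.6 TPM for the lipogenic panel and 17.6, 20.1 and 19.8 TPM for immediate early genes. For glucocorticoid and metal response genes they were 14.1, 16.7 and 15.2 TPM. Sterol response genes had medians of 13.4, 17.1 and 15.4 TPM and fasting genes of 122, 107 and 109 TPM. The metallothionein Mt1 was at 22.5, 153 and 144 TPM and Mt2 at 2.18, 105 and 87.8 TPM. Both were far lower in replicate 1 than in the other two libraries. Interferon response genes summed to 836, 785 and 764 TPM. Of 10 proliferation genes only Ccna2 reached 1 TPM in every library (2.37, 2.22 and 1.98 TPM), and Mki67 was at 0.325, 0.142 and 0.339 TPM.

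Markers of the other liver cell types were present at levels far below those of hepatocytes. The 4 hepatocyte markers summed to 122338, 112869 and 109533 TPM in replicates 1, 2 and 3. The 10 Kupffer cell markers summed to 382, 281 and 276 TPM, 10 sinusoidal endothelium markers to 246, 129 and 132 TPM and 9 stellate cell markers to 257, 163 and 154 TPM. Every one of these 29 genes was at 1 TPM or more in each library. The endothelial lectin Clec4g was at 82.0, 45.4 and 52.1 TPM, the endothelial scavenger receptor Stab2 at 16.1, 9.38 and 7.76 TPM, the Kupffer cell lectin Clec4f at 77.1, 55.1 and 56.6 TPM, and Lrat, which makes retinyl esters in stellate cells, at 7.05, 4.84 and 4.99 TPM. Of genes with a mean count of at least 100, 10 of 10 endothelial, 7 of 7 stellate and 8 of 10 Kupffer markers were highest in replicate 1, beside 36.2% of all 8525 genes.

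Bile duct markers summed to 107, 81.2 and 84.2 TPM, nearly all from Spp1, and Krt19 was at 2.69, 0.257 and 0.0966 TPM. Globin genes and Alas2, which mark red blood cells, summed to 627, 626 and 608 TPM, although each of the 4 globin genes shares at least 50% of its 50-base words with its neighbour. B cell markers summed to at most 13.5 TPM, and those of T and NK cells, neutrophils and platelets to at most 7.27 TPM each. Markers of pancreas summed to 0.918 to 2.50 TPM, of skeletal muscle to 0.0237 to 0.150 TPM and of kidney to 0 to 0.256 TPM. Cela3b, Prss2 and Pnlip of pancreas, Ckm and Acta1 of muscle, Umod of kidney and Lep and Plin1 of adipose tissue had no read in any library.

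**Figure D3:**
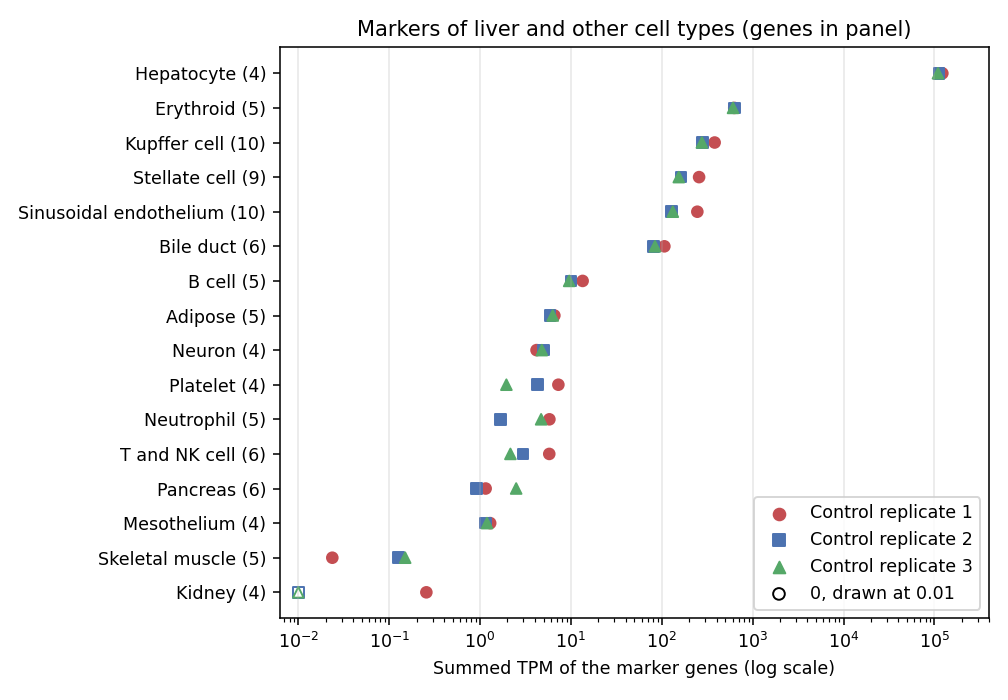
Summed TPM (log scale) of marker genes for hepatocytes, other liver cells, blood cells and neighbouring tissues, with 1 point per Control library; open points are sums of 0 drawn at 0.01. Replicate 1 lies above the other libraries for Kupffer cells, sinusoidal endothelium and stellate cells, while the erythroid sums range from 608 to 627 TPM.

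The 3 libraries were not equally alike. The biological coefficient of variation (BCV), the spread between libraries beyond counting error as edgeR estimates it, was 17.9% over 12134 genes. Taken by pairs it was 20.1% between replicates 1 and 2, 21.1% between replicates 1 and 3 and 9.70% between replicates 2 and 3. Of 3552 genes with a mean count of at least 500, 64 differed by more than 2-fold between replicates 1 and 2, 71 between replicates 1 and 3 and 0 between replicates 2 and 3. At 1.5-fold the numbers were 241, 313 and 7. Replicate 1 was the library farthest from the middle value in 58.3% of these genes. No pair agreed within counting error, the closest being replicates 2 and 3 with a chi-square of 12.8 per degree of freedom.

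The typical gene varied little. Over the 3552 genes the CV of TMM-scaled CPM had a median of 9.49%, of which counting error alone gives 3.09%. A CV of more than 50% was found in 30 genes, 0.845% of those examined, and one of more than 25% in 215, 6.05%. In 18 of the 30 replicate 1 was lowest and in 12 it was highest. Of all 3552 genes 52.5% were lowest and 30.5% highest in it. Without replicate 1 the number of genes over 50% is 0, without replicate 2 it is 64 and without replicate 3 it is 57. The list therefore rests on replicate 1. The 10 genes with the lowest CV, at 0.227% to 0.584%, were Nfic, Eif4a1, Serpinc1, Suds3, Twf1, Ccdc47, Usp14, Hipk1, Rnf128 and Dhrs3. Serpinc1, which encodes antithrombin, was at 2156, 2165 and 2170 CPM. In each of the 10 the CV lies below the one expected from counting error (0.574% for Serpinc1), so these values are too close to rank.

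**Figure D4:**
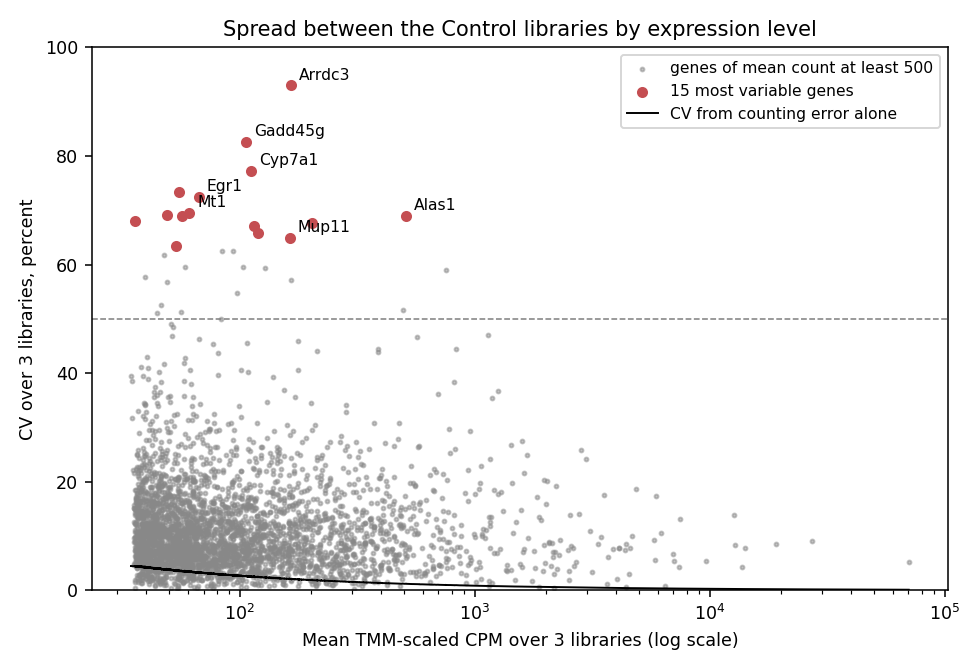
CV of TMM-scaled CPM over the 3 Control libraries (percent) against mean CPM (log scale) for 3552 genes, with the CV that counting error alone gives (black line), the 50% level (dashed) and the 15 most variable genes (red). The red points run from 63.5% (Plk2) to 93.0% (Arrdc3), far above the line.

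In the 15 genes with the highest CV except Mup11, replicates 2 and 3 lay close together. Arrdc3, an arrestin-like adaptor, was at 344, 73.4 and 80.1 CPM in replicates 1, 2 and 3. Gadd45g, a stress-inducible growth arrest gene, was at 5.80, 168 and 145 CPM. Cyp7a1, the rate-limiting enzyme of bile acid synthesis, was at 12.6, 151 and 170 CPM, and Alas1, the rate-limiting enzyme of heme synthesis, at 105, 736 and 687 CPM. Replicate 1 was thus the high library for Arrdc3 and the low one for the other 3. Nr1d1, the clock repressor REV-ERB alpha, was at 102, 34.6 and 29.1 CPM, and Egr1, an immediate early gene, at 123, 37.4 and 40.5 CPM. Mt1 was at 12.04, 87.5 and 83.1 CPM, and the aldo-keto reductase Akr1c19 at 10.02, 64.9 and 71.4 CPM.

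Inhbe (102, 34.7 and 33.7 CPM), which encodes a secreted activin subunit, Angptl8 (63.9, 23.2 and 20.4 CPM), which regulates lipoprotein lipase, and the kinase gene Plk2 (92.4, 33.5 and 34.1 CPM) were highest in replicate 1. Hhex (28.5, 164 and 166 CPM), which encodes a transcription factor, and Arl4d (25.8, 161 and 158 CPM) were lowest in it. Mup11 was at 52.3, 173 and 263 CPM. Among the other genes over 50%, named after their values had been seen, Cyp2a5 was at 239, 1006 and 1008 CPM, Cdkn1a at 160, 61.5 and 57.5 CPM and Dusp1 at 40.3, 174 and 169 CPM. Beside these differences stand those of the endothelial, stellate and Kupffer cell markers and of exonic length, all of which also set replicate 1 apart. Their part in the differences of these genes was not tested, and the labels give no batch or date.

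**Figure D5:**
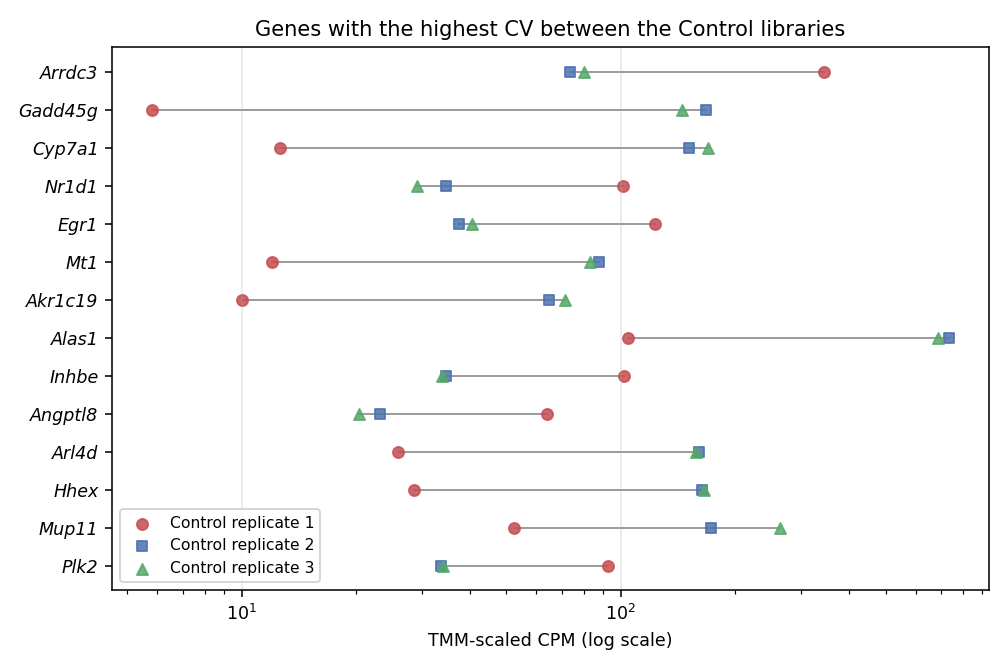
TMM-scaled CPM (log scale) of 14 of the 15 genes with the highest CV, with 1 point per Control library and a line from the lowest to the highest. Replicate 1 is the lowest point for Gadd45g, Cyp7a1, Mt1, Akr1c19, Alas1, Arl4d, Hhex and Mup11 and the highest for Arrdc3, Nr1d1, Egr1, Inhbe, Angptl8 and Plk2.

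By class, MUP genes had a median CV of 45.8% over 10 genes with a mean count of at least 500, and 4 of them (Mup1, Mup11, Mup16 and Mup17) were over 50%, beside 0.845% of all genes. The median CV was 15.9% for conjugating transferases, 13.2% for the nuclear respiratory chain and 13.4% for other xenobiotic oxidation and hydrolysis. It was 5.45% for apolipoproteins, 6.47% for serpins, 6.80% for translation factors and 6.88% for coagulation genes. Of the panels, immediate early genes had a median CV of 35.8% over 8 genes, with Dusp1, Egr1 and Gadd45g over 50%, and glucocorticoid and metal response genes 36.9% over 5 genes. Sinusoidal endothelium markers had a median CV of 34.5% over 7 genes, stellate markers 26.1% over 4 and hepatocyte markers 8.02% over 4.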

How the data were processed

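Whole liver RNA was sequenced, and the authors deposited whole-number read counts per Ensembl gene for each library. The submitters' processing notes name STAR, HTSeq and the build mm10. Kit, strand handling, annotation release and tool versions were not given in the sources used here. The 5 rows that name no gene, which hold 65.1% to 66.7% of the reads, were left out. Of 43346 gene IDs 42462 matched GENCODE M21 (the other 884 held 0.0868% of gene reads). TPM were computed from the counts and the union of exons for 36521 genes of at least 200 bases, a minimum set after the data were seen. CPM were scaled with TMM, and BCV came from estimateDisp in edgeR 4.0.16 with R 4.3.3 and filterByExpr. This step was tried on simulated counts in which no library stood apart as replicate 1 does here. The trial therefore does not cover the setting of these data. With 1 group there is no contrast between groups to test, and no p-value is given. Pairs of libraries were set against counting error by a chi-square per degree of freedom over genes. SD and CV are over 3 libraries. Shared 50-base words were counted in GENCODE M21 transcripts, a check added after the data were seen.

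The members and gene lists were chosen with earlier results of these data known. Of 793 symbols in the lists 2 (Hjv and Klkb1) were not found, and a gene in several classes was counted in the first. Named genes were the 4 hepatocyte markers, the 30 most abundant nuclear genes, the 3 most abundant members of each class, the 15 most and 10 least variable genes with a mean count of at least 500, the members of the panels and the 5 most abundant non-coding genes. Some genes that the rule takes are not reported here. Genes named outside this rule are described as such or are listed for their sequence. Alternatives were read shares, the longest transcript as length, other gene sets in the total, other detection levels, other scalings and filters, and leaving out each library.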

Additional observations from a re-analysis of the deposited data

How the results depend on the processing

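Numbers that rest on a scale moved with it, and the order of the 3 sums of classes did not change. As read shares without division by length, mitochondrial coding genes took 6.38%, plasma and urinary proteins 28.6%, xenobiotic metabolism 6.63%, the 100 most abundant nuclear genes 40.9%, and 208 genes held 50%. With the longest transcript as length the same 5 values were 9.32%, 33.3%, 6.69%, 51.1% and 91.7 genes. With the mitochondrial genome left out Alb took 7.54%, plasma and urinary proteins 39.2%, xenobiotic metabolism 6.97% and intermediary metabolism 12.1%. With protein-coding genes only mitochondrial genes took 11.7%. With genes under 200 bases kept, an alternative chosen after seeing the data, mitochondrial genes took 10.7%, plasma and urinary proteins 32.9% and intermediary metabolism 10.2%. Of the 29 class shares 27 moved by more than their SD as read shares, 17 with the longest transcript, 9 with protein-coding genes only and 13 with short genes kept, and 27 of 28 without the mitochondrial genome. The number of genes detected was 11087 at 10 counts, 13035 at 1 count and 9904 after thinning to equal depth.

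BCV was 17.9% with DESeq2 size factors, 18.3% with total counts and 20.4% without a filter. Genes with a CV over 50% numbered 89 among those with a mean count of at least 100. Leaving out each library in turn, BCV ranged from 9.70% to 21.1% and the genes over 50% from 0 to 64, with both lowest without replicate 1. The CV of class sums then ranged from 0.397% to 4.31% for plasma and urinary proteins, from 0.391% to 8.11% for xenobiotic metabolism, from 2.63% to 6.93% for intermediary metabolism and from 7.21% to 19.9% for MUPs. The last was lowest without replicate 3. No paired analysis was possible because 1 group was described and no groups were compared.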

Other observations

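Some genes fell outside the TPM scale because of their length. Gm23935 is annotated as a miRNA gene of 57 bases on the plus strand of chromosome 16. This gene had 5210, 7385 and 10207 reads in Control replicates 1, 2 and 3, or 328, 529 and 828 CPM without TMM scaling. It was the most counted nuclear gene under 200 bases. The mitochondrial tRNA gene mt-Tp had 5654, 5007 and 4400 reads.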
